A study of Mus musculus with 3 samples.

Results

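The genes described here are the WNT ligands, their receptors and their direct modulators in mouse lung. Members were the gene symbols that begin as WNT, frizzled, SFRP, DKK, LGR, R-spondin or axin genes do, together with Lrp5, Lrp6, Tcf7, Tcf7l1, Tcf7l2, Lef1, Wif1, Porcn and Wls, with a level of at least 1 FPKM (fragments or reads counted per kilobase of a transcript, for each 1000000 mapped) in any of 3 libraries. Of the 23183 genes in the tables, 55 symbols matched and 41 reached this level. No ratio between libraries entered the rule, but a gene could enter through 1 library, since only its highest value had to reach this level. Just inside it lay Rspo4 (1.005 FPKM in its highest library), Lgr4 (1.13 FPKM) and Lgr6 (1.17 FPKM), and just outside it Fzd10 (0.976 FPKM), Wnt10a (0.862 FPKM) and Wnt6 (0.789 FPKM). The other 11 symbols below it were Dkk1, Dkk4, Fzd9, Lgr5, Rspo2, Wnt1, Wnt16, Wnt3, Wnt8a, Wnt8b and Wnt9b.

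RNA of whole lung from female BALB/c mice was sequenced, with 1 library for each of 3 groups. For the control library the labels name neither a treatment nor a vehicle. The PM10 library represents mice that received PM10, a certified reference dust of particles small enough to be inhaled, into the nose 4 times over 2 weeks. The OVA+PM10 library represents mice exposed to those particles and also sensitised to ovalbumin (OVA, an egg-white protein used to model allergic asthma) by injection with aluminium hydroxide and challenged with it through the nose on days 21, 22 and 23; they were killed 2 days after the last challenge. The labels give the age as 10 weeks in one place and as 5 to 6 weeks in another, the first OVA injection as day 0 or day 1, and the particle dose as 100 or 200 µg without saying which was sequenced. They give 5 mice per group and do not say whether a library pooled mice. No library of mice given OVA without particles was analysed here, so the share of each exposure in the OVA+PM10 library cannot be told apart.

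WNT proteins are lipid-modified signals that act over short distances between neighbouring cells. Porcupine attaches the lipid and Wntless carries the ligand to the surface, where it binds a frizzled receptor. Together with the co-receptors LRP5 and LRP6 this halts the axin-based complex that destroys β-catenin, which then activates genes with TCF and LEF factors; other ligands act through frizzleds without β-catenin, on cell polarity and movement. R-spondins strengthen the signal through LGR receptors, and SFRP, DKK and WIF1 proteins, all secreted, dampen it. In the lung the pathway is known for specifying the organ in the embryo and for maintaining alveolar stem cells in the adult.

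Each ratio below compares 2 libraries and not 2 conditions, since no group had a replicate; no p-value, standard error or interval could be given. By the lowest values, 1 read in a transcript of 1 kilobase was worth about 0.0503 FPKM in control, 0.0764 in PM10 and 0.0661 in OVA+PM10. If the values were not rescaled between libraries, this stands for about 19900000, 13100000 and 15100000 reads. Factors that would equalise the libraries by the median ratio over genes were 0.997, 0.999 and 1.01 in the same order. Whether the values had already been rescaled in that way was not tested. By these steps the median member rested on about 329, 164 and 177 reads, and values from fewer than 10 reads were those of Sfrp2, Sfrp4 and Sfrp5 in the PM10 library and of Sfrp5 in the OVA+PM10 library. The libraries also differed in tissue content. Of 12 skeletal muscle markers all were at least 2-fold lower in both exposed libraries (summed level 4352 FPKM in control, 10.9 in PM10 and 27.3 in OVA+PM10), as were all 11 measured markers of squamous epithelium (5934, 1.34 and 2.77 FPKM). The muscle genes Acta1 and Ckm had 966 and 612 FPKM in control and the keratins Krt5 and Krt14 163 and 102 FPKM, and all 4 were below 10 FPKM in both exposed libraries. The markers of lung itself were abundant in all libraries, with the surfactant gene Sftpc at 22645, 56646 and 24439 FPKM in the same order.

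As a group the WNT genes stood lower in the exposed libraries than in the control library. Control held the highest of the 3 values for 28 of the 41 members, against 35.1% of the 14145 genes with at least 1 FPKM in any library. PM10 held it for 6 members, against 38.1% of those genes, and OVA+PM10 for 7, against 26.8%. Ratios are given as log2 ratios of FPKM + 1, and a gene counts as higher or lower when it differed at least 2-fold on that scale and its higher value was 1 FPKM or more. In the PM10 library 12 of 40 measured members (30.0%) were lower than in control, against 13.9% of all genes, and 1 (2.50%) was higher, against 13.6%. In the OVA+PM10 library 11 of 40 (27.5%) were lower, against 8.68% of all genes, and none was higher, against 9.95%. The median member ratio was -0.59 for PM10 and -0.61 for OVA+PM10, where the median over all genes was 0.02 and -0.0017. These comparisons share the control library, and anything particular to that library enters both. Wnt10b, Wnt2b, Wnt9a, Sfrp2, Sfrp5 and Lgr4 reached 1 FPKM in control alone, Rspo4 in PM10 alone and Lgr6 in OVA+PM10 alone. Members that entered through control alone are lower elsewhere by selection, and the shares of all genes carry the same minimum. Of these, Wnt10b, Wnt2b, Sfrp2 and Sfrp5 are counted as lower in both exposed libraries.

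Between the exposed libraries the WNT genes showed no common direction. In the OVA+PM10 library 5 of 35 measured members (14.3%) were higher than in the PM10 library, against 11.8% of all genes, and 3 (8.57%) were lower, against 9.00%. The median ratio was -0.0038, beside -0.03 over all genes. Both shares lie near those of all genes.

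**Figure D1:**
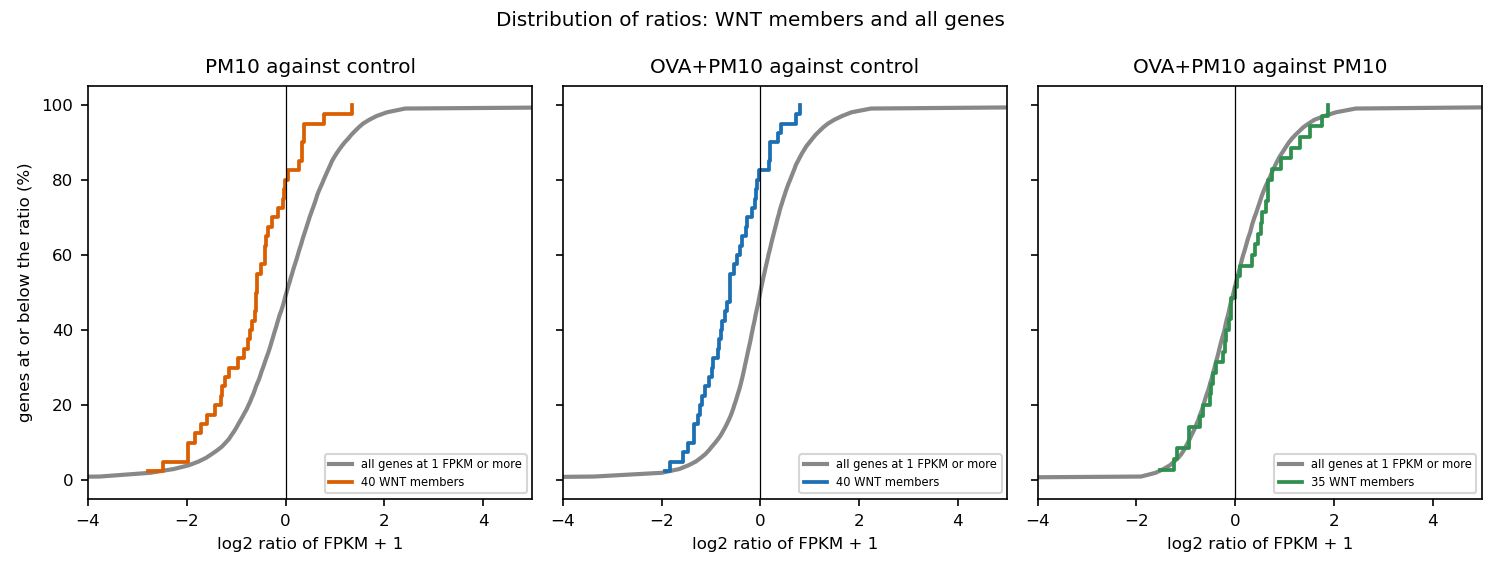
Cumulative share of genes (vertical axis, %) at or below each log2 ratio of FPKM + 1 (horizontal axis) for the WNT members (coloured steps) and for all genes with at least 1 FPKM in either library (grey), 1 panel per comparison. The member curves lie to the left of the grey curves against control (medians -0.59 and -0.61) and on it between the exposed libraries (median -0.0038).

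When every library was scaled to equal summed FPKM, this moved the median of all genes to -1.03 (PM10 to control), -0.58 (OVA+PM10 to control) and 0.49 (OVA+PM10 to PM10), and the member medians to -1.49, -1.18 and 0.53. Against control, the member median thus lay below that of all genes on either scale. The share of all genes that were lower was then 51.8%, 24.5% and 2.51%, and the share higher 1.84%, 4.49% and 24.7%. On that scale the positive PM10 ratios of Porcn, Wnt4, Wnt5b, Wnt7a, Rspo3, Rspo4 and Tcf7l2 turned negative, while that of Wnt2 stayed positive. Values below are on the deposited scale, on which the typical gene has a ratio near 0.

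**Figure D2:**
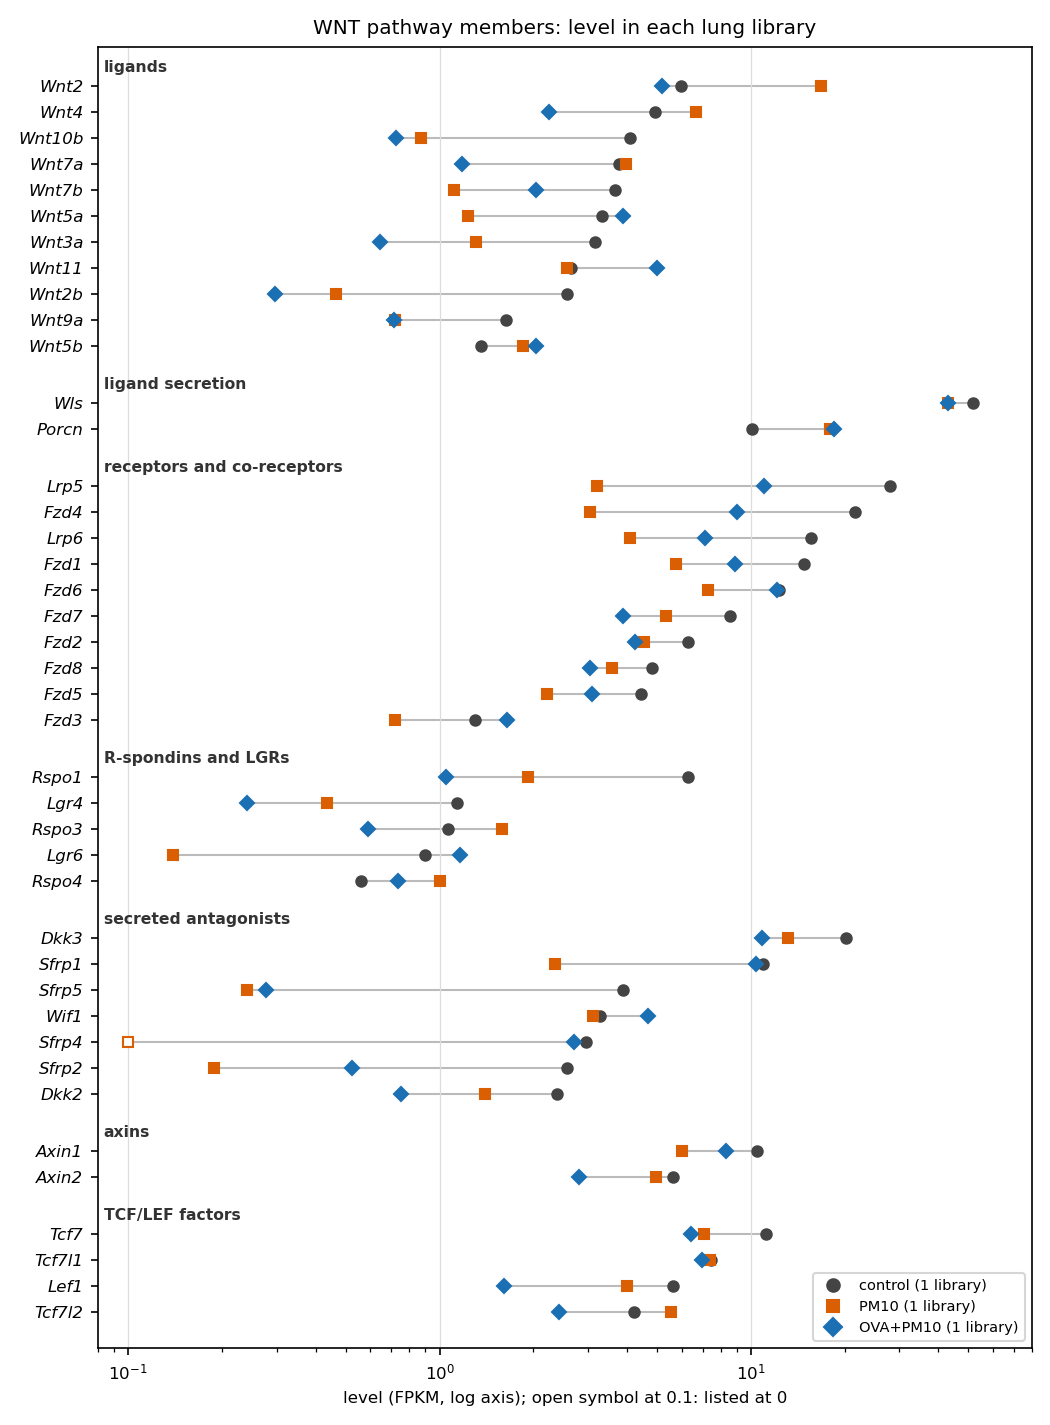
Level of each WNT member (FPKM, log axis) in the control (circle), PM10 (square) and OVA+PM10 (diamond) libraries, 1 library each, ordered by role and by the control level; the open square marks Sfrp4, which is listed at 0 in the PM10 library. Control holds the highest value for 9 of 10 receptors and co-receptors and for 6 of 7 secreted antagonists, and Wnt2 is highest in the PM10 library at 16.8 FPKM.

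Among the 11 ligands, 1 (9.09%) was higher and 3 (27.3%) lower in PM10 than in control, against 13.6% and 13.9% of all genes. The higher one was Wnt2. In OVA+PM10 none was higher than in control and 4 (36.4%) were lower, against 9.95% and 8.68%. Wnt10b and Wnt2b, counted as lower in both, reached 1 FPKM in control alone and are thus lower elsewhere by selection. Wnt2, a β-catenin-activating ligand of lung mesenchyme that is needed for the lung to form (chromosome 6, 17988940 to 18030585, mm10), had 5.97 FPKM in control, 16.8 FPKM in PM10 and 5.175 FPKM in OVA+PM10. It was the most abundant ligand in each of the libraries, and the only member higher in PM10 than in control by 2-fold or more (log2 ratio 1.35, or 1.10 with the trend over transcript length removed). OVA+PM10 stood lower than PM10 by a ratio of -1.53 and near control (-0.18). With equal summed FPKM the PM10 ratio of Wnt2 was 0.23 and no longer reached 2-fold, and the ratio of OVA+PM10 to PM10 was -0.99. About 268, 495 and 177 reads lay behind the values of Wnt2.

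Wnt4, a ligand of kidney and gonad development, and Wnt7a, a ligand that patterns the limb, were lowest in the OVA+PM10 library. With them, 7 of the 11 ligands and 21 of the 41 members were lowest there. Of all genes with at least 1 FPKM in any library, 27.5% were. Wnt4 had 4.93 FPKM in control, 6.65 FPKM in PM10 and 2.25 FPKM in OVA+PM10. Wnt7a had 3.77, 3.96 and 1.19 FPKM in the same order. Wnt7a was also lower in OVA+PM10 than in control (-1.13), while Wnt4 had a ratio of -0.87. Their ratios of OVA+PM10 to PM10 were -1.23 for Wnt4 and -1.18 for Wnt7a, or -0.76 and -0.77 with equal sums, where neither reached 2-fold. Of 10 markers of alveolar type 1 cells, the flat cells of gas exchange, 9 were at least 2-fold lower in OVA+PM10 than in PM10 and none was higher. The shares of all genes were 9.00% and 11.8%. None of the 10 was at 0, and their summed level was 2992, 3743 and 1267 FPKM in control, PM10 and OVA+PM10. Ager had 1228, 1777 and 639 FPKM and Hopx 472, 715 and 230.0 FPKM. Type 1 cells were not alone in this, as 8 of 13 endothelium markers were lower and none higher in that comparison. The part of either cell type in the ligand values was not tested. In RNA from whole tissue, fewer cells of a type and less RNA per cell cannot be told apart.

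Wnt10b, Wnt2b and Wnt3a were highest in control and low in both exposed libraries. Wnt10b, a ligand known for holding back fat cell formation (chromosome 15, 98770712 to 98778150), had 4.08 FPKM in control, 0.875 FPKM in PM10 and 0.727 FPKM in OVA+PM10. Wnt2b, the closest relative of Wnt2, had 2.56, 0.464 and 0.296 FPKM. Wnt3a, the ligand most used in the laboratory to activate β-catenin, had 3.15, 1.31 and 0.646 FPKM. The ratios to control were -1.44 (PM10) and -1.56 (OVA+PM10) for Wnt10b and -1.28 and -1.46 for Wnt2b, while Wnt3a passed 2-fold in OVA+PM10 (-1.33) and had a ratio of -0.85 in PM10.

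The other ligands differed in their order. Wnt5a, a mesenchymal ligand that acts on cell polarity, had 3.32 FPKM in control, 1.23 FPKM in PM10 and 3.875 FPKM in OVA+PM10. It was thus higher in OVA+PM10 than in PM10 (ratio 1.13, or 0.81 with the trend over length removed), and its ratio of PM10 to control was -0.95, or -0.27 with the trend removed. Wnt11, which acts on cell movement, had 2.65, 2.58 and 4.99 FPKM, and its ratio of OVA+PM10 to control was 0.71. Wnt5b, a relative of Wnt5a, had 1.36, 1.85 and 2.04 FPKM, a spread within 2-fold. Wnt7b, a ligand of the developing airway epithelium, had 3.66, 1.12 and 2.05 FPKM and was lower in PM10 than in control (-1.14). Wnt9a, a ligand of joint formation, had 1.63, 0.721 and 0.716 FPKM, highest in control, with ratios to it of -0.61 and -0.62.

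The summed level of the 2 secretion genes was nearly the same in every library (62.0 FPKM in control, 61.0 FPKM in PM10 and 61.3 FPKM in OVA+PM10). Wls, the Wntless carrier, was the most abundant member in all libraries, with 51.9 FPKM in control, 43.0 FPKM in PM10 and 42.9 FPKM in OVA+PM10. Porcn, the enzyme that attaches the lipid, had 10.1, 18.0 and 18.4 FPKM. Its ratios to control were 0.77 and 0.81, short of 2-fold, and with equal sums they were -0.39 for PM10 and 0.21 for OVA+PM10.

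Receptors and co-receptors were lower in PM10 than in control throughout, and none of the 10 had a positive ratio on the deposited scale. Of these, 4 were at least 2-fold lower in PM10 and 3 in OVA+PM10, against 13.9% and 8.68% of all genes. With the trend over transcript length removed, 3 and 0 were. The summed level of the 10 was 118 FPKM in control, 39.8 FPKM in PM10 and 64.2 FPKM in OVA+PM10, whereas that of the 11 ligands was 37.1, 37.5 and 23.9 FPKM. Lrp5, a co-receptor known for its part in bone mass and retinal vessels (chromosome 19, 3584828 to 3686564), had 28.0 FPKM in control, 3.20 FPKM in PM10 and 11.0 FPKM in OVA+PM10. Its close relative Lrp6 (chromosome 6, 134446476 to 134566965) had 15.7, 4.10 and 7.12 FPKM. Control was highest and PM10 lowest for both co-receptors. The ratios to control were -2.79 and -1.27 for Lrp5 and -1.71 and -1.04 for Lrp6, and Lrp5 was higher in OVA+PM10 than in PM10 (1.52).

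Fzd4, the frizzled that also binds norrin and is known for vessel growth in the retina (chromosome 7, 89404355 to 89413134), had 21.7 FPKM in control, 3.05 FPKM in PM10 and 9.05 FPKM in OVA+PM10. This was the same order as in the co-receptors, with ratios of -2.49 and -1.17 to control and of 1.31 between the exposed libraries. Markers of endothelium did not share it: of 13, 4 were higher by 2-fold or more and 2 lower in PM10 than in control, 8 were lower in OVA+PM10, none was at 0, and the summed level was 1529, 2203 and 835 FPKM. Pecam1 had 308, 221 and 139 FPKM and Cdh5 265, 94.9 and 78.8 FPKM. Their part in the level of Fzd4 was not tested.

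The remaining frizzleds differed less. Fzd1, a receptor for β-catenin-activating ligands, had 14.8 FPKM in control, 5.75 FPKM in PM10 and 8.915 FPKM in OVA+PM10, and was lower in PM10 by a ratio of -1.23. Fzd7, a close relative of Fzd1, had 8.57, 5.36 and 3.89 FPKM, with a ratio of -0.97 for OVA+PM10 against control. Fzd2, the third of this subfamily, had 6.28, 4.55 and 4.25 FPKM. Fzd6, a receptor of planar cell polarity (the common orientation of cells in a sheet), had 12.3, 7.27 and 12.2 FPKM, lowest in PM10. Fzd3, its partner in that pathway, had 1.30, 0.720 and 1.65 FPKM. The related receptors Fzd5 and Fzd8 had 4.45, 2.22 and 3.08 FPKM and 4.81, 3.57 and 3.04 FPKM. Of the frizzleds in this paragraph only Fzd1 reached 2-fold on the scale of FPKM + 1, in the comparison given. Without the added 1 FPKM, Fzd7 was 2.20-fold lower in OVA+PM10 than in control. Fzd5 was then 2.01-fold lower in PM10 than in control, and Fzd3 2.29-fold higher in OVA+PM10 than in PM10.

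**Figure D3:**
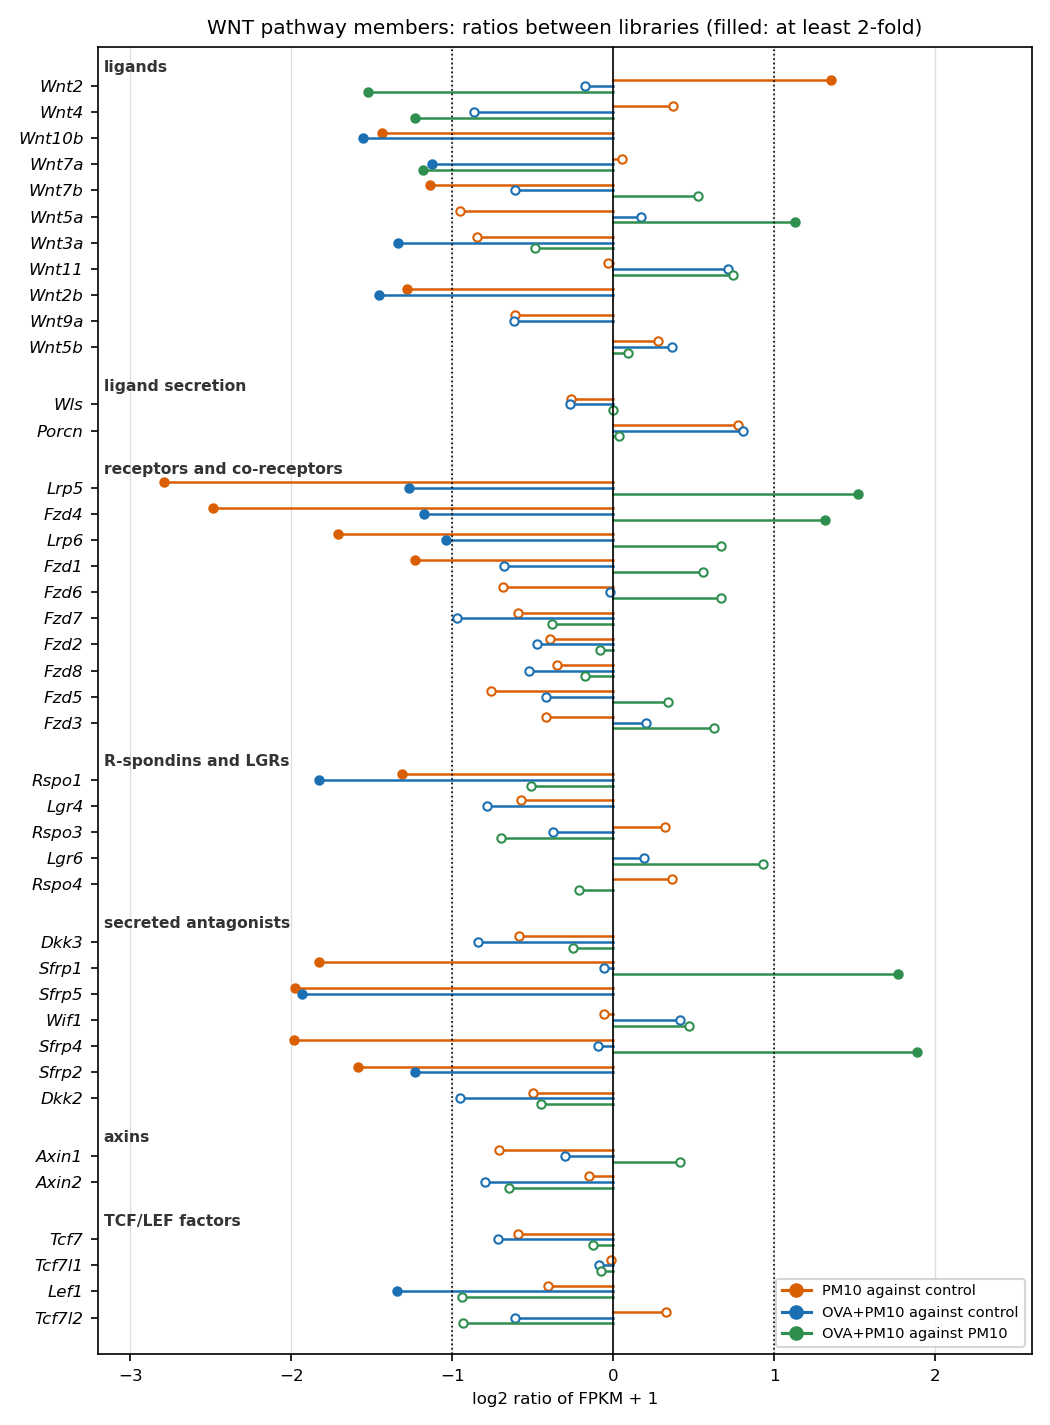
Log2 ratio of FPKM + 1 for each WNT member in the 3 comparisons (horizontal axis; dotted lines mark 2-fold, filled points reach it, comparisons with less than 1 FPKM in both libraries are not drawn, and for Sfrp4 the drawn ratios with PM10 rest on a listed 0 plus 1 FPKM). Lrp5 and Fzd4 have the lowest PM10 ratios (-2.79 and -2.49), and Wnt2 is the single filled point to the right of 0 against control (1.35).

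Transcript length moved with these ratios. Over all genes in the longest of 10 length classes (6612 bases or more), 36.9% were at least 2-fold lower in PM10 than in control, against 8.64% in the class of 2778 to 3236 bases. Members had a median longest transcript of 3656 bases, against 3223 bases for all genes with at least 1 FPKM, and 7 of the 41 exceeded 6000 bases. The longest transcripts were 8893 bases for Lrp5, 9368 bases for Lrp6 and 6720 bases for Fzd4, lengths at which the typical gene had PM10 ratios of -0.80, -0.83 and -0.62. With this trend removed, the PM10 ratios were -1.99 for Lrp5, -0.88 for Lrp6 and -1.86 for Fzd4, so that Lrp6 no longer reached 2-fold. In OVA+PM10 against control none of the 3 reached it (-0.92 for Lrp5, -0.68 for Lrp6 and -0.93 for Fzd4). Fzd3, with 12734 bases the longest member, had a PM10 ratio of -0.42, above the typical gene of its length (0.56 with the trend removed).

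Over all members the removal left 11 lower and 1 higher in PM10 against control (background 11.3% and 7.70% of genes), 8 lower and none higher in OVA+PM10 against control (8.37% and 7.58%), and 4 higher and 3 lower in OVA+PM10 against PM10 (12.0% and 6.65%). The member medians were then -0.34, -0.56 and -0.0024. Across members, Spearman's rho between length and ratio was -0.26 (40 members), 0.14 (40 members) and 0.51 (35 members) in these comparisons, as a description of genes that share libraries. The part of transcript length in the member ratios beyond this removal was not tested.

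**Figure D4:**
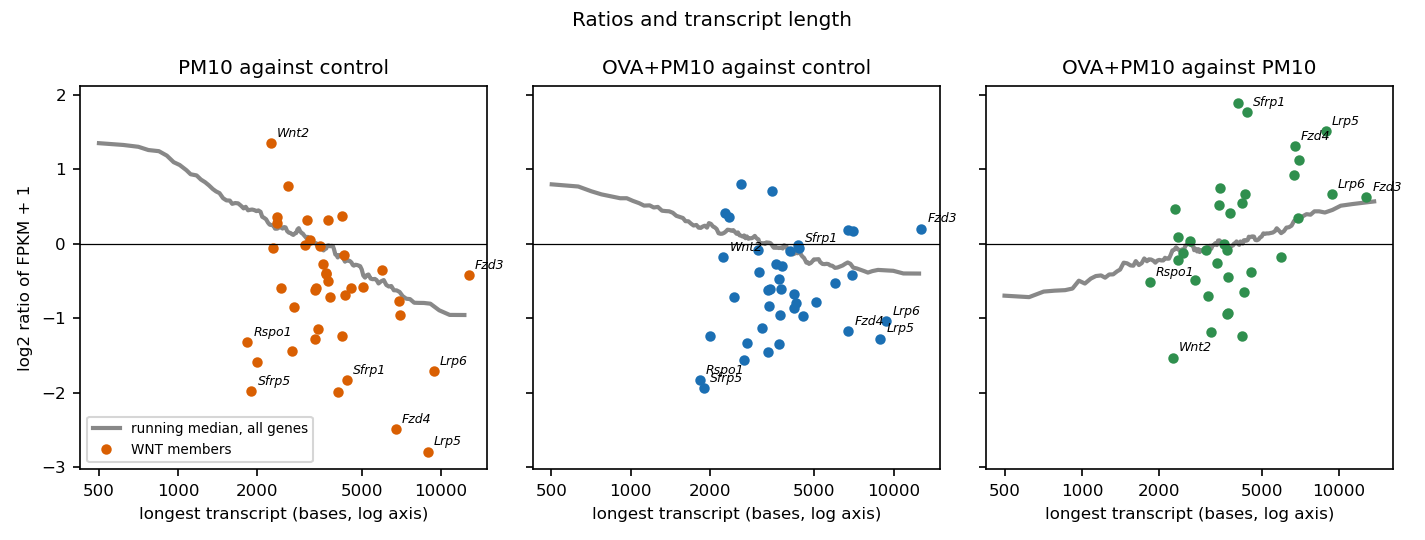
Log2 ratio of FPKM + 1 (vertical axis) against the longest annotated transcript (bases, log axis) for the WNT members (points) and the running median over all genes (grey line), 1 panel per comparison. Lrp5, Fzd4 and Lrp6 lie below the line in PM10 against control at lengths where the line itself is at -0.80, -0.62 and -0.83, and Rspo1 and Sfrp5 lie below it although their transcripts are short (1834 and 1900 bases).

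Of the R-spondins and their receptors, Rspo1 was the only one called. It was 1 of 4 measured (25.0%) lower in each exposed library than in control, against 13.9% and 8.68% of all genes. Rspo1, an amplifier of WNT signals needed for ovary development (chromosome 4, 124986430 to 125009099), had 6.27 FPKM in control, 1.92 FPKM in PM10 and 1.05 FPKM in OVA+PM10. Both exposed values lay far below control, with ratios of -1.31 and -1.83. Rspo3, an R-spondin of vessels and mesenchyme, had 1.06, 1.58 and 0.590 FPKM, and Rspo4, known for nail formation, 0.558, 1.005 and 0.733 FPKM. The receptor Lgr4 had 1.13, 0.434 and 0.241 FPKM, and its relative Lgr6 0.895, 0.139 and 1.17 FPKM. Lgr6 was thus lowest in PM10, where about 12 reads lay behind it, and its ratio of OVA+PM10 to PM10 was 0.93.

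Secreted antagonists held 4 of the 12 members that were lower in PM10, out of 7 measured (57.1%, against 13.9% of all genes). Of these, 2 were also lower in OVA+PM10 (28.6% of the 7, against 8.68%), namely Sfrp2 and Sfrp5. Both reached 1 FPKM in control alone and are thus lower elsewhere by selection. Neither share is therefore read as a trait of the antagonists. Among the 4, Sfrp2, Sfrp4 and Sfrp5 had fewer than 10 reads in the PM10 library. Sfrp1, a secreted frizzled-like protein that binds WNTs (chromosome 8, 23411502 to 23449632), had 10.9 FPKM in control, 2.35 FPKM in PM10 and 10.4 FPKM in OVA+PM10. PM10 alone was low, with ratios of -1.83 to control and of 1.77 for OVA+PM10 against PM10, or -1.62 and 1.72 with the length trend removed. Sfrp4, of the same family (chromosome 13, 19623104 to 19632994), had 2.96 FPKM in control and 2.70 FPKM in OVA+PM10, from about 238 and 165 reads, and was listed at 0 in PM10, where 1 read would be about 0.0189 FPKM. Tgoln2, which most cells use, is also listed at 0 in PM10, with 24.6 FPKM in control and 22.0 FPKM in OVA+PM10. Whether the 0 of Sfrp4 stands for no transcript or for an estimate that failed was not tested. Sfrp4 is counted among the genes that differ, with no fold.

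Sfrp5 and Sfrp2, by contrast, were low in both exposed libraries. Sfrp5, an antagonist also made by adipose tissue (chromosome 19, 42197971 to 42202252), had 3.88 FPKM in control, 0.241 FPKM in PM10 and 0.278 FPKM in OVA+PM10. Sfrp2, an antagonist made by fibroblasts, had 2.58, 0.189 and 0.524 FPKM. The ratios to control were -1.98 and -1.93 for Sfrp5 and -1.59 and -1.23 for Sfrp2, with about 6 and 5 reads behind the PM10 values. The antagonists Dkk3, Dkk2 and Wif1 stayed within 2-fold on the scale of FPKM + 1. Without the added 1 FPKM, Dkk2 was 3.17-fold lower in OVA+PM10 than in control. Dkk3, a divergent member of the Dickkopf family, had 20.2, 13.1 and 10.9 FPKM. Dkk2, which binds the LRP co-receptors, had 2.39, 1.40 and 0.754 FPKM. Wif1, which binds WNT ligands directly, had 3.27, 3.11 and 4.68 FPKM and was the only antagonist highest in OVA+PM10.

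Markers of connective tissue and of tissues outside the alveoli also differed between the libraries. Of 16 fibroblast markers, 2 were higher by 2-fold or more and 8 lower in PM10 than in control, and 9 were higher and 2 lower in OVA+PM10 than in PM10, with none at 0. Their summed level was 2853, 5074 and 1748 FPKM in control, PM10 and OVA+PM10, and Col1a1 and Col1a2 had 52.5, 13.1 and 135 FPKM and 89.1, 56.0 and 147 FPKM. Of 12 smooth muscle and pericyte markers, none was higher and 7 were lower in PM10 than in control, and 7 were higher in OVA+PM10 than in PM10 (summed level 728, 399 and 920.0 FPKM, none at 0), with Acta2 at 82.8, 32.0 and 202 FPKM and Myh11 at 42.1, 8.37 and 68.7 FPKM. Sfrp1, Sfrp4 and Wnt5a were lowest in PM10, as were 10 of the 16 fibroblast markers and 9 of the 12 smooth muscle and pericyte markers. In OVA+PM10, 6 and 2 of these markers were lowest. Of all genes with at least 1 FPKM in any library, 37.1% were lowest in PM10, as were 17 of the 41 members. Whether the 0 of Sfrp4 there is a failed estimate was not tested, and the PM10 ratio of Wnt5a was -0.27 with the length trend removed. The fibroblast sum, highest in PM10, rested on Inmt (1771, 4513 and 827 FPKM), which with Tcf21 (79.1, 160 and 54.7 FPKM) was highest there. The part of these cells in the levels of Sfrp1, Sfrp4 and Wnt5a was not tested.

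Adipose tissue markers were highest in control. Of 8 measured, 7 were at least 2-fold lower in PM10 and 6 in OVA+PM10 (summed level of the 10 listed 329, 12.1 and 116 FPKM), with Plin1, Lep and Ucp1 at 0 in PM10 and Lep in OVA+PM10, and Adipoq at 11.6, 0.531 and 4.44 FPKM and Plin1 at 5.01, 0 and 1.10 FPKM. Of 5 measured mesothelial markers, 3 were lower in each exposed library, with Msln at 17.5, 3.71 and 4.13 FPKM and Upk3b at 17.4, 0.149 and 0 FPKM. Calb2 was at 0 in control and Upk3b and Wt1 in OVA+PM10, while the summed level of the 7 listed (204, 199 and 281 FPKM) rested on Krt19 (160, 193 and 274 FPKM), which other epithelia express. Among skeletal muscle markers, Acta1, Tnnc2, Myh4 and Myh8 were at 0 in PM10 and Tnnc2, Myh4, Myh1, Myh2 and Myh8 in OVA+PM10. Among squamous markers, Krt5, Krt14, Krt13, Krt6a, Sprr3, Dsg3 and Krtdap were at 0 in PM10 and Krt6a, Sprr3, Dsg3 and Krtdap in OVA+PM10. Of 7 adipose markers measured in OVA+PM10 against PM10, 5 were higher and 1 lower. The ratios in that comparison were -0.51 for Rspo1, 0.04 for Sfrp5, 0.36 for Sfrp2, -0.12 for Wnt10b and -0.18 for Wnt2b. All of these but Rspo1 had less than 1 FPKM in both exposed libraries. The part of any of these tissues in the control levels of Rspo1, Sfrp5, Sfrp2, Wnt10b and Wnt2b was not tested.

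Upstream sequences are shown for Rspo1, Sfrp2, Sfrp5 and Wnt10b, which stood at least 2-fold below control in each exposed library and whose window holds no annotated exon, and for Wnt11 as an example of a window with a TCF/LEF motif. Each is the 250 bases before the RefSeq gene start (GRCm38.p6, 5′ to 3′ on the gene's strand). Capitals mark a motif that TCF and LEF factors are known to bind, searched on both strands in 4 forms that share their last 5 letters. The first form was ATCAAAG. The second was TTCAAAG. The other forms were AACAAAG and, differing from it in its start, TACAAAG. RefSeq windows were matched for 27 of the 41 members.
Rspo1, chr4:124986180-124986429, plus strand: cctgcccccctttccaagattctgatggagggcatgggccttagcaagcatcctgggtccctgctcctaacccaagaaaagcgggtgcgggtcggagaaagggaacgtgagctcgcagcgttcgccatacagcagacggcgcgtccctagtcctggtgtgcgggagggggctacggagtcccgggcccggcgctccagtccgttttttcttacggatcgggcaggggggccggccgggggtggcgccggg
Sfrp2, chr3:83766071-83766320, plus strand: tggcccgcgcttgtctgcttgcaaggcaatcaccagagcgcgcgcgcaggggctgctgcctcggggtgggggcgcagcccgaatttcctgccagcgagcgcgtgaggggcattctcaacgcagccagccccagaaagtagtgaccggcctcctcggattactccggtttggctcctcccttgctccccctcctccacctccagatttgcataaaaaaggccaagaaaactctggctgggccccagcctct
Sfrp5, chr19:42202253-42202502, minus strand: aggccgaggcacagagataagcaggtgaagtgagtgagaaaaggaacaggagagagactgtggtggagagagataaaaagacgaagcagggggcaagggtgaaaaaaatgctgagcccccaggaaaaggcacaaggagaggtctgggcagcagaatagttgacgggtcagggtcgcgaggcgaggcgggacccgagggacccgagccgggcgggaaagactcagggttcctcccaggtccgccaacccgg
Wnt10b, chr15:98778151-98778400, minus strand: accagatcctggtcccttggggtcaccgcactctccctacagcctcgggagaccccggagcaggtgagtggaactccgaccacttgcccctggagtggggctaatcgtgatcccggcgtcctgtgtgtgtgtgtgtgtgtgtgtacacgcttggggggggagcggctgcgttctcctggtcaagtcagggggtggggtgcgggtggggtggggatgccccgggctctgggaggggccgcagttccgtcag
Wnt11, chr7:98834862-98835111, plus strand: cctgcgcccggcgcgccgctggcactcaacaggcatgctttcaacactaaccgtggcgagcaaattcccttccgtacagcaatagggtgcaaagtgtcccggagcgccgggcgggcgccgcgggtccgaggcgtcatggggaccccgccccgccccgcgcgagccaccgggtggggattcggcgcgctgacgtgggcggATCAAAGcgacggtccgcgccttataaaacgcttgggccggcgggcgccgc
The motif was present in 5 of 35 member windows (14.3%), those of Fzd7, Lef1, Tcf7l2, Wnt11 and Wnt5b, and in 14.8% of all 32851 windows of that length. The motif was thus about as common in member windows as in windows of other genes. It was in none of the 6 windows matched among the 8 members lower than control in both exposed libraries (the 4 shown and those of Fzd4 and Wnt2b, which overlap exons), nor in that of the feedback gene Axin2. The member windows were rich in G and C, with a median of 66.4% against 52.4% over all windows.

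The axins and the TCF and LEF factors stayed mostly within 2-fold on the scale of FPKM + 1. Axin1, a scaffold of the complex that destroys β-catenin, had 10.5 FPKM in control, 6.01 FPKM in PM10 and 8.33 FPKM in OVA+PM10. Axin2, its relative that β-catenin itself induces and that serves as a common readout of the pathway, had 5.61, 4.96 and 2.80 FPKM. Axin2 was thus near control in PM10 (-0.15) and lowest in OVA+PM10 (-0.80), and neither ratio reached 2-fold.

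Lef1, a β-catenin partner also known from lymphocytes (chromosome 3, 131110471 to 131224356), was the single factor past 2-fold on that scale. It had 5.62 FPKM in control, 3.99 FPKM in PM10 and 1.61 FPKM in OVA+PM10, a ratio of -1.34 for OVA+PM10 against control and of -0.94 against PM10. Tcf7, which encodes the T cell factor TCF-1, had 11.2, 7.095 and 6.42 FPKM. T cell markers had another order: of 13, 3 were higher by 2-fold or more and 1 lower in PM10 than in control, and 2 were higher and none lower in OVA+PM10, with none at 0 and a summed level of 132, 248 and 200.3 FPKM. Cd3d had 9.04, 46.9 and 24.3 FPKM and Cd3e 11.9, 4.76 and 16.0 FPKM, and their part in the levels of Lef1 and Tcf7 was not tested. Tcf7l1, a TCF that mostly represses, had nearly the same level in every library (7.45, 7.38 and 6.95 FPKM). Tcf7l2, the main factor of intestinal stem cells, had 4.22, 5.54 and 2.42 FPKM, with a ratio of -0.93 for OVA+PM10 against PM10.

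Among 29 measured genes of the β-catenin machinery that are not members, 7 were lower and none was higher in PM10 than in control (median -0.28), none was called in OVA+PM10 against control (median -0.18), and 6 were higher and none lower in OVA+PM10 than in PM10 (median 0.11). The shares of all genes were 13.9% lower and 13.6% higher, 8.68% and 9.95%, and 9.00% and 11.8% in these comparisons. With the length trend removed, 5 were lower and 1 higher in PM10 than in control, where the median turned positive (0.05), and 4 were higher and 1 lower in OVA+PM10 than in PM10, where it turned negative (-0.04). Ctnnb1, β-catenin itself, was abundant throughout at 269, 216 and 245 FPKM. Dvl3, a dishevelled protein that relays the frizzled signal, had 7.55 FPKM in control, 0.099 FPKM in PM10 and 6.62 FPKM in OVA+PM10. Tnks, a tankyrase that marks axin for degradation, had 10.5, 1.01 and 8.84 FPKM. The β-catenin co-activators Bcl9 and Bcl9l had 4.56, 0.876 and 5.27 FPKM and 9.13, 1.72 and 8.125 FPKM. These 4 were low in the PM10 library alone. Apc, a scaffold of the destruction complex with a long transcript (12811 bases), had 12.4, 4.32 and 6.94 FPKM, a PM10 ratio of -1.33, or -0.36 with the length trend removed. Pygo1 and Tle3 completed the 7 lower in PM10, and without Apc these were the 6 that were higher in OVA+PM10 than in PM10. Gsk3b, a kinase of that complex, had 10.03, 6.48 and 5.93 FPKM.

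Among 18 other measured surface and extracellular regulators, 8 were lower and 1 was higher in PM10 than in control (median -0.63). In OVA+PM10, 4 were lower and none higher (median -0.46). The shares of all genes were 13.9% lower and 13.6% higher, and 8.68% and 9.95%. With the length trend removed, 7 were lower and 2 higher in PM10, and 5 were lower and none higher in OVA+PM10. Of the 8, Frzb (1.49 FPKM in control) and Sostdc1 (1.29 FPKM) are listed at 0 in PM10. As for Sfrp4, whether these are failed estimates was not tested. Both reached 1 FPKM in control alone and are thus lower elsewhere by selection. Between the exposed libraries 2 of 16 (12.5%) were higher and 2 (12.5%) lower in OVA+PM10, against 11.8% and 9.00% of all genes. Tmem88, an inhibitor of dishevelled, was the higher one, with 6.56 FPKM in control, 28.8 FPKM in PM10 and 7.14 FPKM in OVA+PM10, highest in PM10 like Wnt2. Dkkl1, a Dickkopf-like gene, had 7.97, 1.66 and 6.58 FPKM. Apcdd1, a membrane inhibitor of the pathway, had 3.46, 0.524 and 1.63 FPKM, and Shisa2, which retains frizzleds inside the cell, 5.79, 3.35 and 0.978 FPKM. The 4 lower in OVA+PM10 than in control were Frzb, Sostdc1, Reck and Shisa2. Between the exposed libraries Kremen1 and Dkkl1 were higher and Tmem88 and Shisa2 lower in OVA+PM10.

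Among the measured non-canonical receptors and planar cell polarity genes, 1 of 19 was higher and 5 were lower in PM10 than in control (median -0.45), none of 20 was higher and 6 were lower in OVA+PM10 (median -0.35), and 3 of 19 were higher and 2 lower in OVA+PM10 than in PM10. The shares of all genes were 13.6% higher and 13.9% lower, 9.95% and 8.68%, and 11.8% and 9.00% in these comparisons. With the length trend removed none of the 19 was lower in PM10 than in control, and 1 was higher. In OVA+PM10 against control 3 were then lower and 1 higher. The polarity proteins Prickle1 and Prickle2 were low in OVA+PM10 alone, with 22.6, 24.5 and 7.64 FPKM and with 16.2, 11.4 and 5.305 FPKM. Celsr1, a polarity cadherin, had 4.15, 2.04 and 7.97 FPKM, and Daam2, a formin that binds dishevelled, 5.71, 1.48 and 1.70 FPKM. Prickle3 was the 1 higher in PM10 than in control, and Ror1, Vangl2, Celsr2, Daam2 and Dact1 were the 5 lower. In OVA+PM10 against PM10, Ror1, Celsr1 and Dact1 were higher and Prickle1 and Prickle3 lower.

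Known target genes of β-catenin were called in both directions. Of 20 measured in PM10 against control, 1 was higher and 4 were lower (median 0.06; 13.6% and 13.9% of all genes), while removal of the length trend gave 5 higher and 3 lower (median 0.21). Of 22 in OVA+PM10 against control, none was higher and 3 were lower (median -0.26), beside 9.95% and 8.68% of all genes. Of 22 in OVA+PM10 against PM10, 4 were higher and 3 lower (median -0.31), beside 11.8% and 9.00%. In each of these comparisons 15 of the 22 ratios were negative. The cell growth genes Myc (5.06, 3.76 and 5.97 FPKM) and Ccnd1 (38.6, 48.0 and 33.3 FPKM) stayed within 2-fold. Vegfa, the vessel growth factor, had 110 FPKM in control, 49.7 FPKM in PM10 and 29.1 FPKM in OVA+PM10, below control by ratios of -1.12 and -1.88. Wisp2, a matricellular protein, had 18.1, 44.7 and 12.5 FPKM and Bambi, a receptor decoy, 3.76, 7.87 and 2.45 FPKM, both highest in PM10 like Wnt2. Ppard, a nuclear receptor, had 8.61, 1.67 and 5.90 FPKM, lowest in PM10. The 4 lower in PM10 than in control were Ppard, Vegfa, Fgf18 and Tiam1, and the 3 lower in OVA+PM10 were Tnfrsf19, Jun and Vegfa. In OVA+PM10 against PM10, Ppard, Sox9, Ephb2 and Tiam1 were higher and Bambi, Wisp2 and Tcf4 lower.

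**Figure D5:**
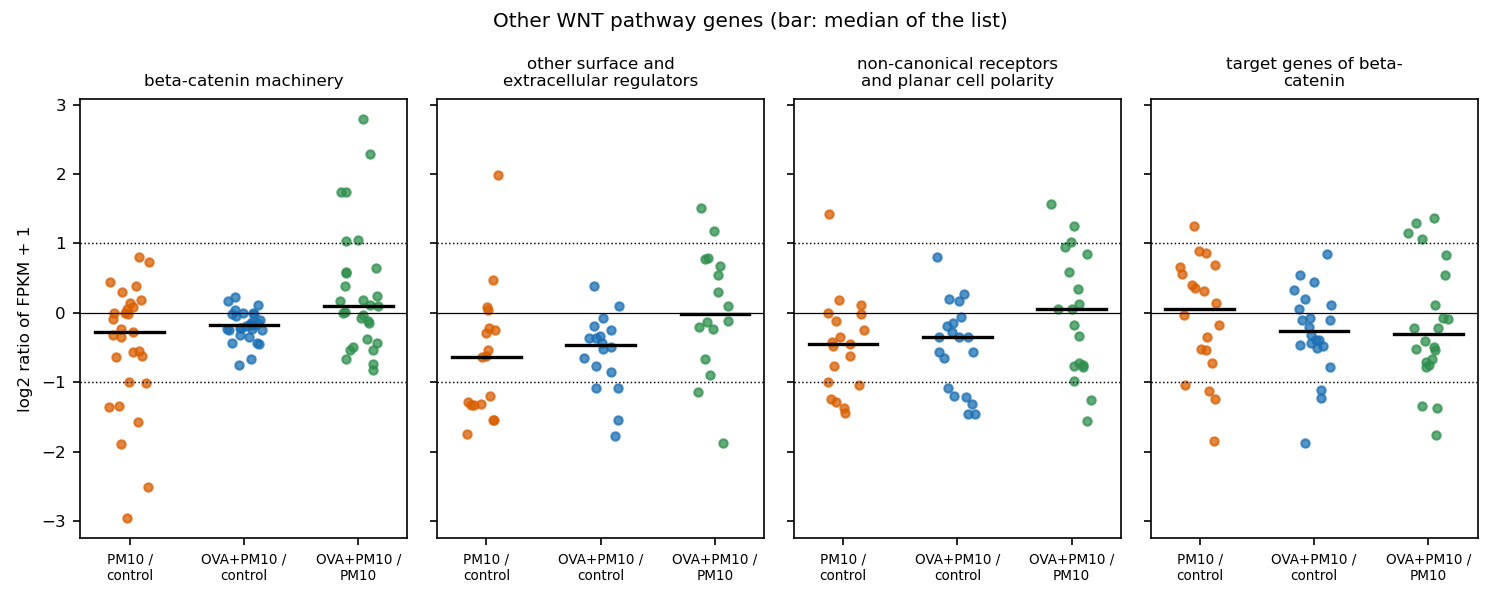
Log2 ratio of FPKM + 1 (vertical axis) of the measured genes of 4 WNT pathway lists that are not members, 1 panel per list and 1 column of points per comparison; black bars are list medians and dotted lines mark 2-fold. The β-catenin machinery has no point past 2-fold in OVA+PM10 against control and reaches up to 2.79 (Dvl3) in OVA+PM10 against PM10.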

How the data were processed

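RNA of 3 lung libraries was measured, 1 per group, assigned by their titles. The deposited values were FPKM, a unit read from the values. Alignment tool and build, per the submitters' processing notes, were TopHat and mm10. Not given in the sources used here: counting program, annotation, use of strand. Values of overlapping or antisense genes are uncertain. Log2 ratios of FPKM + 1 were computed with numpy 2.4.6 and pandas 2.3.3 in Python 3.11.15 and tested on simulated data; they understate the change of low genes. A call needed a 2-fold ratio and at least 1 FPKM in the higher library. GENCODE M21 (GRCm38, that is mm10) gave coordinates and the length of each gene's longest transcript, by symbol for 22148 genes (95.5%). The trend over length was a running median over 501 genes. Depth was estimated from FPKM times length in genes with 1 transcript, assumes no rescaling between libraries and is approximate. All members were named, and in each of 4 pathway lists up to 4 genes with the largest ratios plus Ctnnb1, Apc, Gsk3b, Myc and Ccnd1; of the 17 marker lists the first 2 genes, plus Krt19 and genes at 0; these and the other genes listed for counts of up to 7 were chosen after their values were seen. Alternatives were pseudocounts of 0.25 and 5 FPKM, no filter or 5 FPKM, thresholds of 1.5-fold and 4-fold, scaling to equal sums or by the median ratio, removal of the length trend, and leaving out 153 genes (ribosomal, hemoglobin, immunoglobulin, muscle and squamous) before scaling to equal sums. The members and lists were chosen with earlier results of these data known.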

Additional observations from a re-analysis of the deposited data

How the results depend on the processing

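No paired analysis was possible because each group had 1 library, and no library could be left out. Results are given in the order PM10 against control, OVA+PM10 against control and OVA+PM10 against PM10. As reported, 12, 11 and 3 members were lower, 1, 0 and 5 higher, and the medians were -0.59, -0.61 and -0.0038. With 5 FPKM added, 4, 1 and 1 were lower (5.47%, 3.78% and 4.93% of all genes). Then 0, 0 and 1 were higher (9.25%, 5% and 3.51%), with medians of -0.31 and -0.29 against control. In OVA+PM10 against control the 1 lower member of 40 was not above the share of all genes. With 0.25 FPKM added, 15, 15 and 6 were lower (18.0%, 11.0% and 11.3%) and 1, 0 and 6 higher (16.2%, 12.3% and 16%). The second median was then -0.75. At a minimum of 5 FPKM, 6 of 20 and 5 of 18 were lower against control (13.4% and 9.14% of all genes) and 3 of 16 were higher in the last comparison (10.6%). With no minimum, the medians against control were -0.42 and -0.42. With equal sums, 32, 24 and 0 were lower and 0, 0 and 10 higher, with medians of -1.49, -1.18 and 0.53. After 153 genes were left out as well, 29 and 22 were lower and none higher against control, with medians of -1.32, -1.09 and 0.19, where 36.0% and 19.5% of all genes were lower against control and the medians of all genes were -0.68, -0.43 and 0.26. With the length trend removed the first median was -0.34. At 1.5-fold 21, 22 and 7 were lower (25.5%, 17.7% and 22.5% of all genes) and 2, 2 and 10 higher (26.3%, 20.6% and 22.7%). At 4-fold 2, 0 and 0 were lower (3.83%, 1.99% and 0.819%) and 0, 0 and 0 higher (2.21%, 1.49% and 2.14%). By construction a larger added value, a higher minimum or a higher threshold lowers the counts; the cause of the other shifts was not tested. No called member changed sign in any of these settings that gave it a value. Depth limits Sfrp2, Sfrp4 and Sfrp5 in the PM10 library most.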
